A study of Mus musculus with 8 samples.

Results

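The genes described here are 34 targets and regulators of the sterol regulatory element-binding proteins (SREBPs), taken as a fixed list of symbols out of 35906 annotated mouse genes that carried summed counts. They comprised 18 enzymes of sterol synthesis, 5 genes that sense sterol or regulate the pathway, 2 genes of sterol transport and storage, and 9 genes of fatty acid synthesis and desaturation. They were measured by RNA sequencing of liver macrophages sorted as CD45+/CD31-/F4/80+ cells from BALB/c mice. The CCl4 group was 4 libraries from wild-type BALB/c mice treated with carbon tetrachloride, a hepatotoxin used to produce liver fibrosis. The vehicle group was 4 libraries from wild-type BALB/c mice given vehicle. CCl4 dose, its duration and the age of the mice are not stated in the labels. The labels do not state that the libraries came from separate mice. The p-values therefore reflect library-to-library spread alone, and part of that spread may be technical.

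SREBPs are membrane-bound transcription factors held in the endoplasmic reticulum by the escort protein SCAP and the INSIG retention proteins while sterol is plentiful. When membrane sterol falls, SCAP carries SREBP to the Golgi, proteases release its transcription factor domain, and genes of lipid synthesis are switched on. SREBP2 acts mainly on sterol synthesis and SREBP1 mainly on fatty acid synthesis. In macrophages, which take up lipid from dying cells, the same machinery works beside cholesterol esterification and export.

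Of the 18 sterol synthesis enzymes, 9 rose and none fell, including Hmgcs1, which makes HMG-CoA, and Msmo1, which oxidises methyl groups of sterol intermediates. Srebf2, which encodes SREBP2, also rose. Of the 9 fatty acid genes, 3 rose (Scd2, Acss2 and Fads2) and none fell. Scd1 and Scd2, which encode closely related stearoyl-CoA desaturases, had log2 fold changes of opposite sign. Across all 15212 genes tested, 8.93% were called higher and 6.26% lower in CCl4 libraries. Among the members, 13 of 34 (38.2%) were called higher and 0 lower by edgeR. The members were chosen with earlier results of these data known, so this share is a description and not a test. An unadjusted edgeR p under 0.05 was found for 21 of 34, all with positive fold changes, and for 4297 of all 15212 genes in either direction. DESeq2 called 17 members higher and 0 lower, against 1787 higher and 1239 lower of all 15212 genes.

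**Figure D1:**
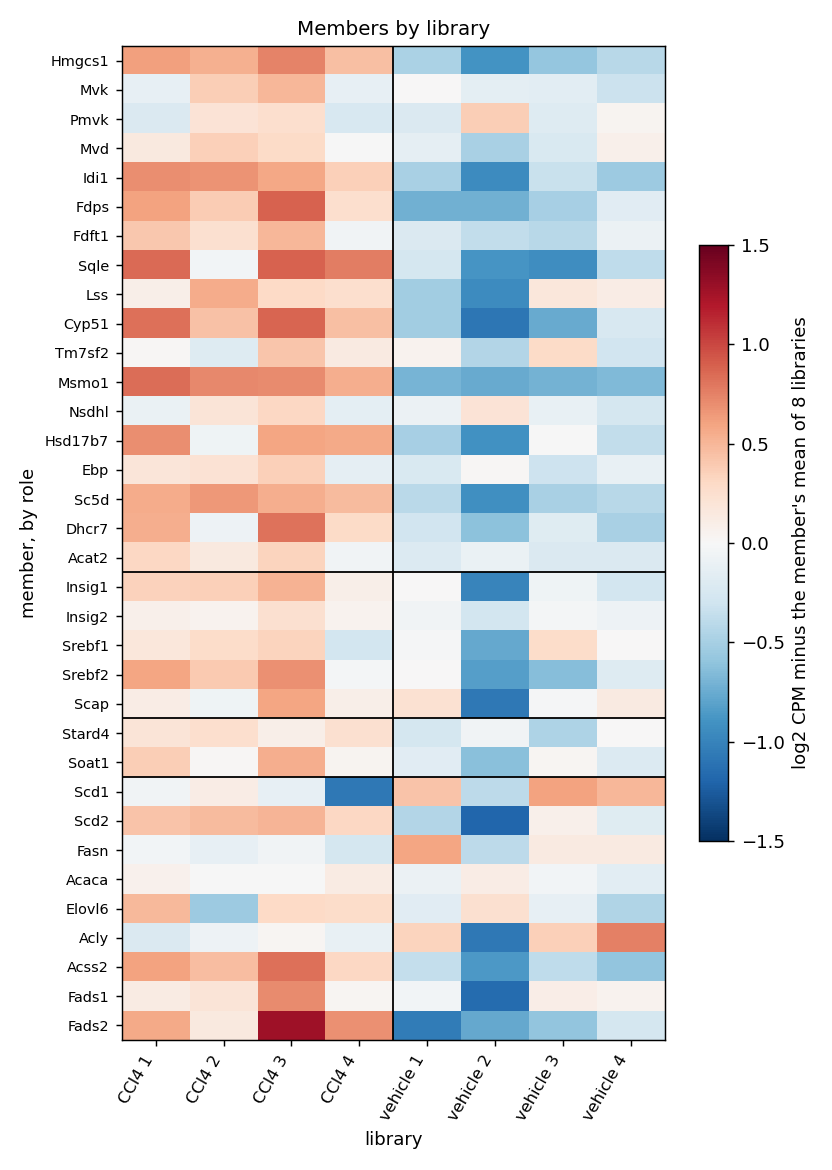
Heat map of the 34 members (rows, by role) in the 4 CCl4 libraries (left) and the 4 vehicle libraries (right). Colour is the log2 TMM-normalized CPM of a library minus the member's mean over all 8 libraries. For 10 of the 18 sterol enzymes every CCl4 library is above every vehicle library, while vehicle 2 is the lowest vehicle library for 23 of the 34 members.

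A call here is an adjusted p under 0.05 from edgeR's quasi-likelihood test of CCl4 over vehicle, adjusted over all 15212 genes. Levels of a gene across libraries are in CPM, that is, estimated counts normalised to library size with edgeR's TMM factors. The exceptions are the cell type markers, Lyz2 included, and the chemosensory genes, whose CPM are scaled to library size alone. TMM factors ran from 0.846 in CCl4 3 to 1.10 in vehicle 2. Calls of markers are from the TMM-scaled test. Levels compared between genes are in TPM, which accounts for transcript length. All 34 members passed the filter on low counts. The median log2 fold change of all genes tested was -0.03, against 0.68 for the sterol enzymes and 0.28 for the fatty acid genes. The fatty acid median depended on the processing, at 0.14 with library size alone and -0.08 with length-scaled TPM counts.

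The libraries held 19489104 to 26196063 estimated counts each. All 10 macrophage markers were detected, with 1 called higher (Lyz2) and 1 lower (C1qc). Lyz2, which encodes lysozyme, had 39899.6 to 47956 CPM in CCl4 and 14260 to 21618 CPM in vehicle libraries. The other 9 macrophage markers summed to 12993 to 17553 CPM in CCl4 and 20046 to 21452 CPM in vehicle libraries. Several marker lists differed between the groups. Kupffer cell markers summed to 6306 to 11192 CPM in CCl4 and 22665 to 31070 CPM in vehicle libraries, with 7 of 8 lower. Endothelial markers summed to 257 to 337 CPM in CCl4 and 598 to 1037 CPM in vehicle libraries, with 7 of 10 lower. Cdh5 is on both the Kupffer cell and the endothelial list. Neutrophil markers summed to 97.8 to 320 CPM in CCl4 and 44.8 to 109 CPM in vehicle libraries, with 5 of 10 higher. Mesothelial markers summed to 69.6 to 161 CPM in CCl4 and 7.32 to 38.0 CPM in vehicle libraries, with 6 of 8 higher. Cycling markers had 4 of 10 lower, and stellate cell and fibroblast markers had 3 higher and 2 lower of 10. Hepatocyte markers, from the liver cell type with the most lipid synthesis, summed to 78.4 to 142 CPM in CCl4 and 121 to 220 CPM in vehicle libraries, with 0 higher and 1 lower of 12. No list had a marker at 0 in every library. The part of these differences in the results below was not tested. In bulk RNA, a change in how many cells of a type were sorted and a change in RNA per cell cannot be told apart.

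The early steps of sterol synthesis build HMG-CoA and then mevalonate. Hmgcs1, the cytosolic HMG-CoA synthase at the entry of the pathway, had 51.3, 48.5, 55.9 and 45.8 CPM in the CCl4 libraries, against 24.0, 17.9, 22.3 and 25.1 CPM in the vehicle libraries. The lowest CCl4 library was well above the highest vehicle library, and Hmgcs1 rose (log2 fold change 1.17, SE 0.14, edgeR adjusted p = 0.00029). Acat2, the acetoacetyl-CoA thiolase that supplies the substrate of Hmgcs1, averaged 29.0 ± 3.5 CPM in CCl4 and 22.4 ± 0.91 CPM in vehicle libraries (SD, n = 4 each). Its groups did not overlap, but its log2 fold change of 0.37 missed the threshold (edgeR adjusted p = 0.0876).

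The upstream window of Hmgcs1 is shown because it was the only member whose windows held the sterol element searched for. It is the 250 bases before the RefSeq start (GRCm38.p6), read 5′ to 3′ on the plus strand, at chr13:119690101-119690350. Capitals mark matches on either strand to TCACNCCAC, a form of the sterol regulatory element, and to CCAAT, the NF-Y box often found beside it (ATTGG on the other strand).
Hmgcs1: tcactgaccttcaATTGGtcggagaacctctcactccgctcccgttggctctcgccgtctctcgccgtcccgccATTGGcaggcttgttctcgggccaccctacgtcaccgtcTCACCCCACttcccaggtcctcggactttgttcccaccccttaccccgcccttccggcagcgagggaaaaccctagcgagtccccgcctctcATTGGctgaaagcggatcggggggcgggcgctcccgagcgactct
Where a gene had several RefSeq starts, a match in any of its windows was counted. TCACNCCAC was found in 1 of the 27 members with a window, Hmgcs1 (3.7%), and in 331 of 27025 genes with one (1.22%). CCAAT was found in 21 of the 27 members (77.8%), against 37.5% of all genes with a window and 40.2% of the tested genes with one. By role, CCAAT was present in 14 of 15 sterol enzymes, 4 of 5 regulators and 2 of 6 fatty acid genes. Among members called higher, 8 of 9 windows held CCAAT, and among those not called, 13 of 18 did. For 17 of the 27 members a window overlapped an annotated exon of the same gene, and 15 of 27 held a CCAAT outside such exons (9 of 15 sterol enzymes). The count outside exons was not made for all genes, so the 37.5% and 40.2% above are not its background. These matches describe letters in the window and do not show that a factor binds there. The CCAAT search was chosen after seeing the data.

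The mevalonate kinases and decarboxylase showed no call. Mvk, mevalonate kinase, had a log2 fold change of 0.33 (SE 0.20), with 8.28 to 12.7 CPM in CCl4 and 7.24 to 9.09 CPM in vehicle libraries. Pmvk, phosphomevalonate kinase, averaged 15.4 ± 2.8 CPM in CCl4 and 15.4 ± 3.0 CPM in vehicle libraries (SD, n = 4 each). Mvd, the mevalonate diphosphate decarboxylase, had 20.02 to 25.7 CPM in CCl4 and 14.4 to 21.3 CPM in vehicle libraries, and its log2 fold change of 0.38 did not pass (edgeR adjusted p = 0.138). The libraries of the groups overlapped for all of Mvk, Pmvk and Mvd.

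The isoprenoid steps that follow rose. Idi1, which interconverts the isoprenoid building blocks, had 25.7, 25.5, 23.7 and 20.4 CPM in the CCl4 libraries, against 11.3, 8.27, 12.7 and 10.9 CPM in the vehicle libraries. Every CCl4 library was above every vehicle library (log2 fold change 1.14, SE 0.17, edgeR adjusted p = 0.00081). Fdps, farnesyl diphosphate synthase, had 38.4, 32.9, 46.8 and 30.1 CPM in the CCl4 libraries, against 15.4, 15.3, 17.9 and 22.6 CPM in the vehicle libraries. The groups did not overlap, although vehicle 4 stood above the other vehicle libraries (log2 fold change 1.05, SE 0.18, edgeR adjusted p = 0.00248).

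Squalene formation and oxidation differed in how firm the call was. Fdft1, squalene synthase, had 17.0, 15.2, 18.2 and 12.4 CPM in the CCl4 libraries, against 11.1, 9.94, 9.65 and 12.1 CPM in the vehicle libraries. CCl4 4 lay just above vehicle 4, and the log2 fold change of 0.56 (SE 0.17) passed narrowly (edgeR adjusted p = 0.0458). Without any 1 of the other 7 libraries the Fdft1 call was lost, with log2 fold changes of 0.50 to 0.62 and edgeR adjusted p of 0.06 to 0.12. An exon of Fdft1 overlaps 774 bases of Ctsb on the opposite strand, and Ctsb averaged 29702 CPM in CCl4 and 22583 CPM in vehicle libraries. Reads of the pair cannot be told apart without strand, so the Fdft1 value is uncertain. Sqle, squalene epoxidase and a rate-limiting step, had 15.9, 8.56, 16.3 and 14.98 CPM in the CCl4 libraries, against 7.33, 4.78, 4.63 and 6.76 CPM in the vehicle libraries. CCl4 2 was far below the other CCl4 libraries but still above all vehicle libraries, and Sqle rose by 1.24 (log2 fold change, SE 0.25, edgeR adjusted p = 0.00542). Lss, lanosterol synthase, had 15.03 to 20.7 CPM in CCl4 and 7.34 to 15.9 CPM in vehicle libraries. Its groups overlapped, and its log2 fold change of 0.53 did not pass (edgeR adjusted p = 0.17).

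The enzymes that trim lanosterol into cholesterol were split. Cyp51, the lanosterol demethylase, had 34.6, 26.5, 35.8 and 26.6 CPM in the CCl4 libraries, against 13.5, 9.20, 11.6 and 16.6 CPM in the vehicle libraries. The groups were well apart (log2 fold change 1.28, SE 0.20, edgeR adjusted p = 0.00114). Cyp51 overlaps 166 exon bases of Akap9 on the opposite strand, which averaged 37.8 CPM in CCl4 and 45.2 CPM in vehicle libraries. Msmo1, the methylsterol monooxygenase that acts after Cyp51, had 84.1, 77.5, 76.9 and 68.6 CPM in the CCl4 libraries, against 29.0, 27.7, 28.8 and 29.7 CPM in the vehicle libraries. The vehicle libraries were nearly level, and Msmo1 had the largest log2 fold change and the smallest p of the 34 members (1.41, SE 0.12, edgeR adjusted p = 3.85e-05). Nsdhl and Hsd17b7, the sterol dehydrogenase and ketoreductase that act after Msmo1, were not called. Nsdhl averaged 21.4 ± 3.3 CPM in CCl4 and 19.5 ± 2.8 CPM in vehicle libraries (SD, n = 4 each). Hsd17b7 had 2.92 to 4.95 CPM in CCl4 and 1.63 to 3.05 CPM in vehicle libraries, and was not called (log2 fold change 0.88, SE 0.30, edgeR adjusted p = 0.0691). The Hsd17b7 groups overlapped only through CCl4 2, and without it the log2 fold change of 1.03 just passed (edgeR adjusted p = 0.05).

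The late isomerase, desaturase and reductases completed the enzyme list. Sc5d, the sterol desaturase near the end of the pathway, had 30.9, 32.7, 30.4 and 29.1 CPM in the CCl4 libraries, against 15.8, 11.1, 14.9 and 15.7 CPM in the vehicle libraries. Both groups were tight and far apart (log2 fold change 1.10, SE 0.15, edgeR adjusted p = 0.000508). Dhcr7, the reductase that makes cholesterol from its immediate precursor, had 13.0, 8.48, 15.8 and 10.9 CPM in the CCl4 libraries, against 7.33, 5.85, 7.87 and 6.36 CPM in the vehicle libraries. The groups were apart by a small margin between CCl4 2 and vehicle 3, and the gene rose (log2 fold change 0.81, SE 0.22, edgeR adjusted p = 0.0255). The Dhcr7 call was lost without CCl4 1 (0.79, edgeR adjusted p = 0.0654), CCl4 3 (0.68, edgeR adjusted p = 0.0736) or vehicle 4 (0.78, edgeR adjusted p = 0.0713). Tm7sf2, a sterol reductase, had 5.76 to 8.78 CPM in CCl4 and 4.83 to 7.99 CPM in vehicle libraries, and shares 532 exon bases with Vps51 on the same strand. Ebp, the sterol isomerase, had 47.2 to 66.6 CPM in CCl4 and 41.7 to 52.5 CPM in vehicle libraries. Neither Tm7sf2 nor Ebp passed the test, with log2 fold changes of 0.18 and 0.32.

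**Figure D2:**
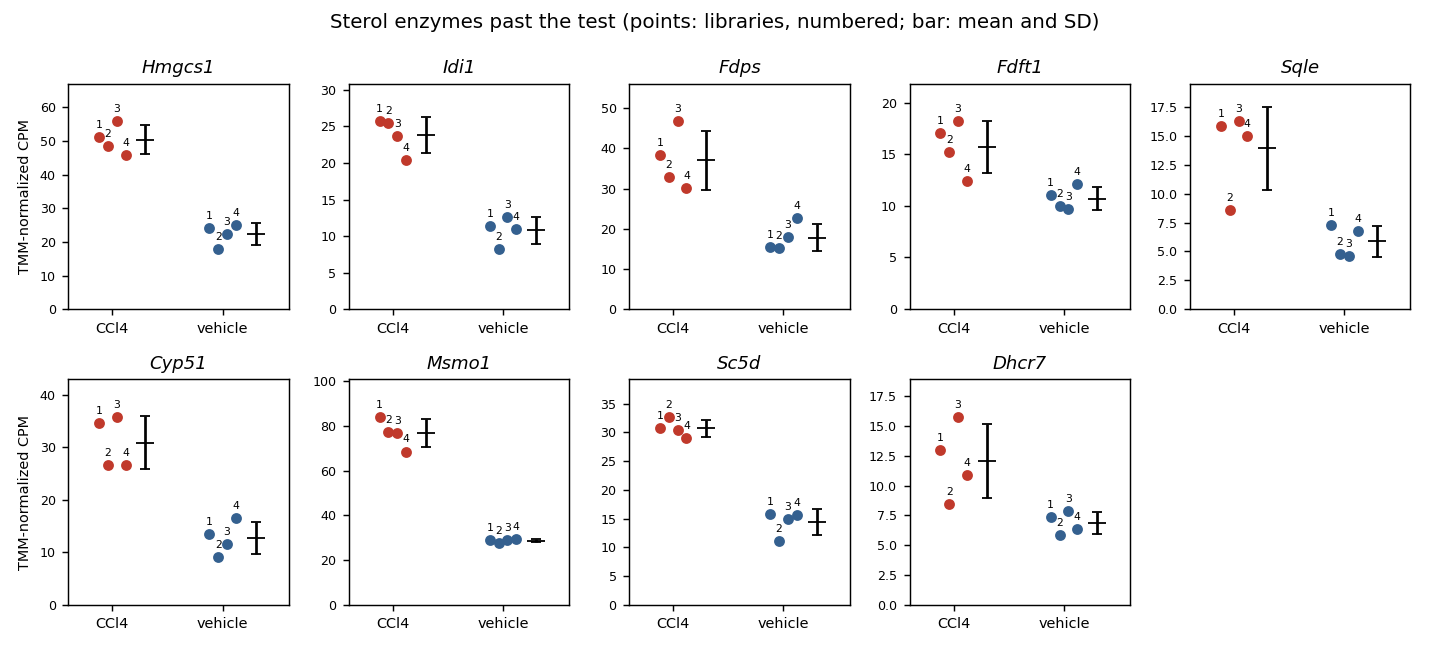
TMM-normalized CPM of the sterol synthesis enzymes called higher, 1 panel per gene, with the 4 CCl4 libraries on the left and the 4 vehicle libraries on the right; points are libraries and bars the mean and SD. The groups do not overlap in any panel; Fdft1 shows the narrowest gap, and in the Sqle panel CCl4 2 lies at 8.56 CPM.

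Counted together, 10 of the 18 sterol enzymes had every CCl4 library above every vehicle library, and 17 of 18 had a positive log2 fold change. Across all genes tested, 13% had groups apart in the higher and 9.49% in the lower direction. The 9 enzymes that were not called had a median log2 fold change of 0.33. Summed over the 18 enzymes, TPM was 324, 340, 333 and 329 in the CCl4 libraries, against 195, 190, 211 and 236 in the vehicle libraries. The CCl4 sums fell within a narrow band above all vehicle sums, at 331.5 ± 6.6 TPM in CCl4 and 207.8 ± 20.6 TPM in vehicle libraries (SD, n = 4 each). On the TPM scale the most abundant enzyme in CCl4 libraries was Msmo1 at 58.8 ± 4.1 TPM, against 22.4 ± 2.2 TPM in vehicle libraries, where Ebp at 39.0 ± 4.3 TPM was above it.

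**Figure D3:**
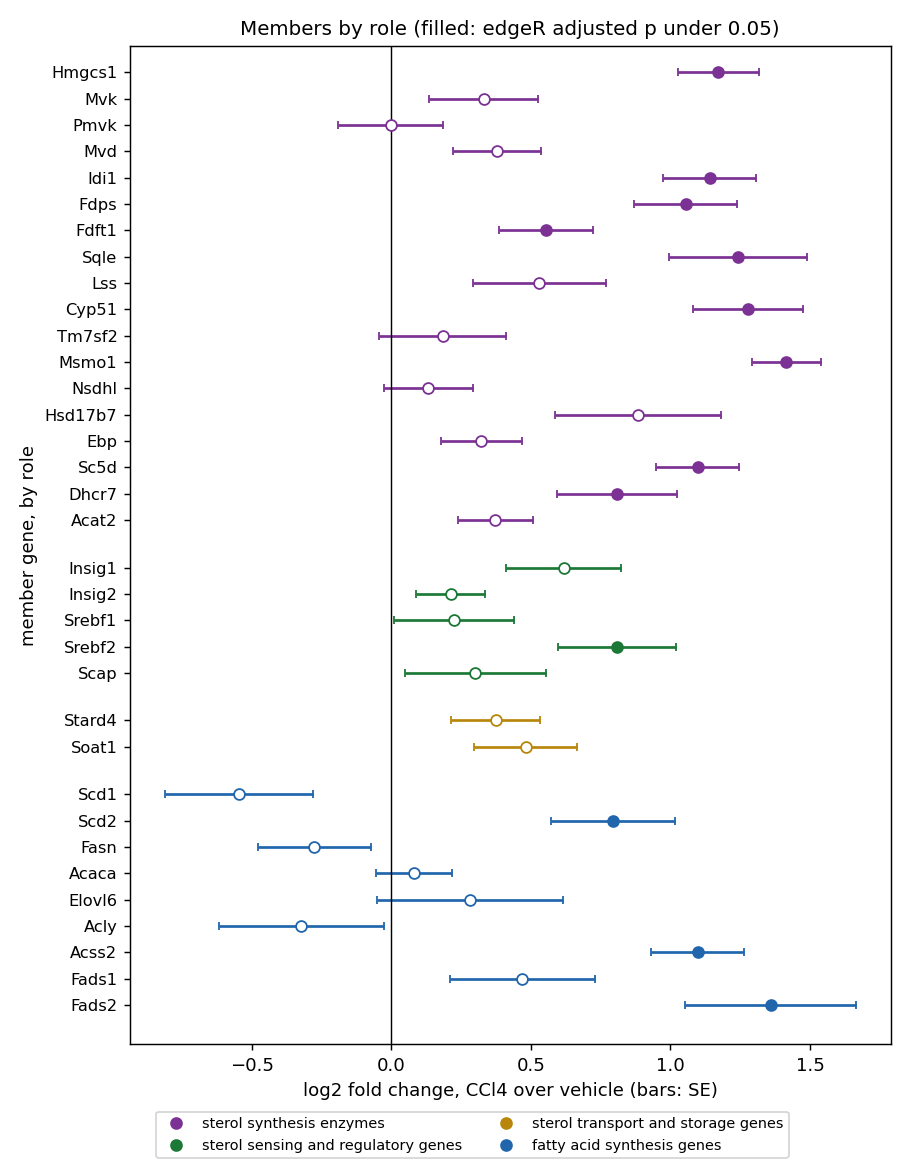
Log2 fold change of CCl4 over vehicle for the 34 members, grouped by role from top to bottom; bars are the SE and filled points have an edgeR adjusted p under 0.05. The filled points are 9 sterol enzymes, Srebf2, Scd2, Acss2 and Fads2, all to the right of 0; the points left of 0 are Scd1, Acly, Fasn and, at -0.00087, Pmvk.

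Among the regulators, 1 of 5 was called higher and none lower. Srebf2, which encodes the SREBP that drives sterol genes, had 89.0, 77.6, 94.7 and 57.7 CPM in the CCl4 libraries, against 59.0, 33.4, 38.0 and 51.8 CPM in the vehicle libraries. CCl4 4 lay below vehicle 1, and the other 3 CCl4 libraries lay above all vehicle libraries (log2 fold change 0.81, SE 0.21, edgeR adjusted p = 0.0239). The Srebf2 call was lost without CCl4 1 (0.76, edgeR adjusted p = 0.0643), CCl4 3 (0.74, edgeR adjusted p = 0.0613) or vehicle 3 (0.73, edgeR adjusted p = 0.08). Srebf1, which encodes the SREBP1 isoforms, had 57.1, 61.7, 64.0 and 42.1 CPM in the CCl4 libraries, against 50.1, 29.9, 61.6 and 51.0 CPM in the vehicle libraries. The groups overlapped widely (log2 fold change 0.22, SE 0.21, edgeR adjusted p = 0.562). Scap, the escort protein, had 32.7, 29.1, 45.6 and 32.2 CPM in the CCl4 libraries, against 35.4, 14.4, 29.9 and 33.4 CPM in the vehicle libraries. Vehicle 2 was far below the rest, and the other libraries of the groups were intermixed (log2 fold change 0.30, SE 0.25, edgeR adjusted p = 0.494).

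The INSIG proteins retain SCAP, and Insig1 is itself a classical SREBP target. Insig1 had 106, 108, 120 and 88.8 CPM in the CCl4 libraries, against 84.3, 42.0, 79.8 and 69.3 CPM in the vehicle libraries. Its groups did not overlap, but its log2 fold change of 0.62 (SE 0.21) missed the threshold (edgeR adjusted p = 0.0666). It passed without vehicle 1 (0.75, edgeR adjusted p = 0.0483) and without vehicle 2 (0.44, edgeR adjusted p = 0.045). Insig2 had 39.1, 38.6, 43.7 and 38.6 CPM in the CCl4 libraries, against 35.9, 30.6, 36.3 and 35.2 CPM in the vehicle libraries. The Insig2 groups were also apart, by a small gap (log2 fold change 0.21, SE 0.12, edgeR adjusted p = 0.295). Insig1 made up 60.9 ± 2.3% of the summed Insig1 and Insig2 TPM in CCl4 and 54.6 ± 7.8% in vehicle libraries (SD, n = 4 each). That difference of 6.32 percentage points was not past the threshold (exact two-sided permutation p = 0.114, adjusted over the 3 shares tested 0.171). All 5 regulators were lowest in vehicle 2 among the vehicle libraries and highest in CCl4 3 among the CCl4 libraries.

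Srebf1 has an upstream start for the SREBP1a isoform and a downstream start for SREBP1c, the form known as a target of liver X receptors. The 250 bases before each start are shown because the transcript shares below rest on telling these starts apart, a choice made after seeing the data. Both are from RefSeq, GRCm38.p6, on the minus strand, at chr11:60220628-60220877 for the 1a start and chr11:60210472-60210721 for the 1c start. Capitals mark CCAAT on either strand.
Srebf1, 1a start: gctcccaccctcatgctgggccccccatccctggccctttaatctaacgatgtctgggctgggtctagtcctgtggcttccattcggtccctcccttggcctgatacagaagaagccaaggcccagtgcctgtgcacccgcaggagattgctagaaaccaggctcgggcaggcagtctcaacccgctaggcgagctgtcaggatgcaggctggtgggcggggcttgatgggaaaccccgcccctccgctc
Srebf1, 1c start: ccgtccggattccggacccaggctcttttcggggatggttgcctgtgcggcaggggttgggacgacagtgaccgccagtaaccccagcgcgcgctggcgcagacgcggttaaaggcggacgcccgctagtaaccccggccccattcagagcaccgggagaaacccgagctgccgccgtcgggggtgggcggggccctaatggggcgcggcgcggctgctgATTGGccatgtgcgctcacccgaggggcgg
The window of the 1a start held no CCAAT and that of the 1c start held 1 on the opposite strand. Another Srebf1 window, before a RefSeq start further upstream (chr11:60222582-60222831), held 1 CCAAT and is not printed. The transcript from the 1a start supplied 55.1, 40.6, 61.2 and 41.6% of Srebf1 TPM in the CCl4 libraries, against 45.5, 62.2, 58.5 and 41.9% in the vehicle libraries. The groups covered nearly the same range, with a difference of -2.4 percentage points (exact two-sided permutation p = 0.6, adjusted over 3 shares 0.6). Counting only the 1a transcript Srebf1-201 and the 1c transcript Srebf1-207 was likewise chosen after seeing the data. The 1a share was then 77.8 ± 6.2% in CCl4 and 83.5 ± 8.2% in vehicle libraries (SD, n = 4 each, exact two-sided permutation p = 0.314). Srebf1-207 is annotated with 3177 bases and stops at position 60200463, against 4299 bases and 60199089 for Srebf1-201. Reads from that last stretch cannot be assigned to Srebf1-207, so RNA from the 1c start may count towards the 1a share in both measures. The size of this was not tested.

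Sterol transport and storage had 2 members, and neither was called. Soat1, the enzyme that esterifies cholesterol for storage in macrophage lipid droplets, was the most abundant member, at 229.7 ± 19.8 TPM in CCl4 and 206.3 ± 30.7 TPM in vehicle libraries (SD, n = 4 each). On the CPM scale Soat1 had 367 to 529 in CCl4 and 234 to 371 in vehicle libraries, and was not called (log2 fold change 0.48, SE 0.18, edgeR adjusted p = 0.106). Stard4, a sterol transfer protein, had 12.5 to 14.0 CPM in CCl4 and 8.54 to 11.8 CPM in vehicle libraries. Its groups did not overlap, and its log2 fold change of 0.37 did not pass (edgeR adjusted p = 0.148). In the authors' deposited FPKM values the log2 differences of Soat1 and Stard4 had the opposite sign, at -0.20 and -0.10 on the log2(FPKM + 1) scale.

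The fatty acid arm starts with acetyl-CoA supply, by Acly from citrate and by Acss2 from acetate. Acss2 had 30.9, 28.1, 36.2 and 25.3 CPM in the CCl4 libraries, against 15.9, 11.2, 15.6 and 13.5 CPM in the vehicle libraries. The groups were well apart (log2 fold change 1.10, SE 0.17, edgeR adjusted p = 0.00106). Acss2 overlaps 163 exon bases of Gss on the opposite strand, which averaged 40.9 CPM in CCl4 and 42.4 CPM in vehicle libraries. Acly had 212, 234, 250 and 227 CPM in the CCl4 libraries, against 310, 116, 314 and 414 CPM in the vehicle libraries. Vehicle 2 lay below all CCl4 libraries and the other 3 vehicle libraries above them, so the Acly difference was not called (log2 fold change -0.32, SE 0.30, edgeR adjusted p = 0.54). Without vehicle 2 it was called lower (-0.58, edgeR adjusted p = 0.0162).

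Carboxylation, chain building and elongation showed no call. Acaca, acetyl-CoA carboxylase, averaged 14.9 ± 0.66 CPM in CCl4 and 14.1 ± 1.1 CPM in vehicle libraries (SD, n = 4 each). Fasn, fatty acid synthase, had 9.61 to 11.2 CPM in CCl4 and 8.78 to 17.3 CPM in vehicle libraries, with a log2 fold change of -0.28 (edgeR adjusted p = 0.423). Elovl6, an elongase of long-chain fatty acids, had 1.54 to 3.15 CPM in CCl4 and 1.64 to 2.65 CPM in vehicle libraries. Groups overlapped for all of Acaca, Fasn and Elovl6.

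The desaturases divided by gene. Scd2 had 46.0, 47.4, 48.8 and 42.5 CPM in the CCl4 libraries, against 25.3, 15.001, 36.2 and 30.1 CPM in the vehicle libraries. The groups did not overlap (log2 fold change 0.79, SE 0.22, edgeR adjusted p = 0.0333). The Scd2 call was lost without CCl4 1, 2 or 3 or vehicle 1 or 4, with log2 fold changes of 0.78 to 0.86 and edgeR adjusted p of 0.0565 to 0.0724. Scd1, the main stearoyl-CoA desaturase of liver, had 34.1, 38.3, 32.5 and 16.8 CPM in the CCl4 libraries, against 47.4, 26.9, 53.7 and 49.8 CPM in the vehicle libraries. Only vehicle 2 fell among the CCl4 values, and the log2 fold change of -0.55 did not pass (SE 0.27, edgeR adjusted p = 0.207). Scd1 and Scd2 are similar in sequence, so kallisto divides shared reads between them.

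Set against each other, Scd2 supplied 52.9, 52.1, 53.0 and 69.0% of the summed Scd1 and Scd2 TPM in the CCl4 libraries, against 31.9, 33.3, 37.2 and 34.7% in the vehicle libraries. Every CCl4 library was above every vehicle library, and CCl4 4 stood apart at the top. The difference of 22.5 percentage points had an exact two-sided permutation p of 0.0286, the smallest that 4 against 4 libraries can give, and 0.0858 after adjustment over the 3 shares. In this ratio a rise of Scd2 and a fall of Scd1 cannot be told apart.

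**Figure D4:**
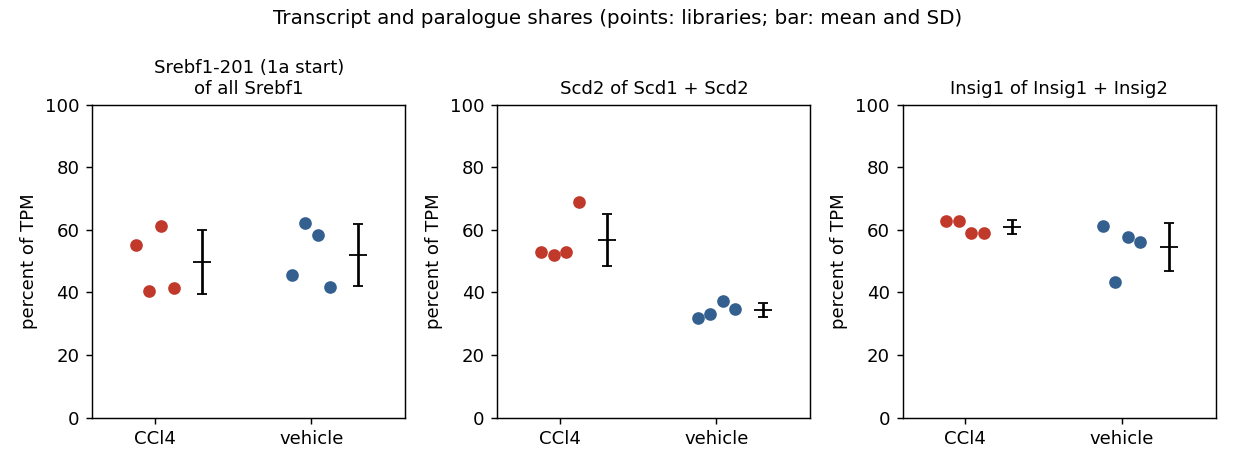
The 3 shares in percent of TPM (Srebf1 from the 1a start, Scd2 of Scd1 and Scd2, Insig1 of Insig1 and Insig2), with the 4 CCl4 libraries on the left and the 4 vehicle libraries on the right; points are libraries and bars the mean and SD. The groups are apart for the Scd2 share, with CCl4 4 at 69.0%, and overlap for the other shares.

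Fads1 and Fads2 encode the front-end desaturases that make arachidonic and other polyunsaturated fatty acids. Fads2 had 5.04, 3.75, 8.19 and 5.47 CPM in the CCl4 libraries, against 1.64, 2.00, 2.25 and 2.84 CPM in the vehicle libraries. Every CCl4 library was above the vehicle libraries, at low levels (log2 fold change 1.36, SE 0.31, edgeR adjusted p = 0.0109). Fads1 was far more abundant, at 77.8 ± 10.7 TPM in CCl4 and 58.6 ± 21.8 TPM in vehicle libraries, where Fads2 had 2.71 ± 0.69 and 1.21 ± 0.52 TPM (SD, n = 4 each). Fads1 had 169 to 271 CPM in CCl4 and 74.7 to 177 CPM in vehicle libraries, and its log2 fold change of 0.47 did not pass (edgeR adjusted p = 0.269). Summed over the 9 fatty acid genes, TPM was 192.7 ± 11.3 in CCl4 and 187.6 ± 73.9 in vehicle libraries (SD, n = 4 each). The vehicle spread came with vehicle 2 at 84.9 TPM, below the other vehicle libraries. Whether the sterol and fatty acid arms differ from each other was not tested.

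**Figure D5:**
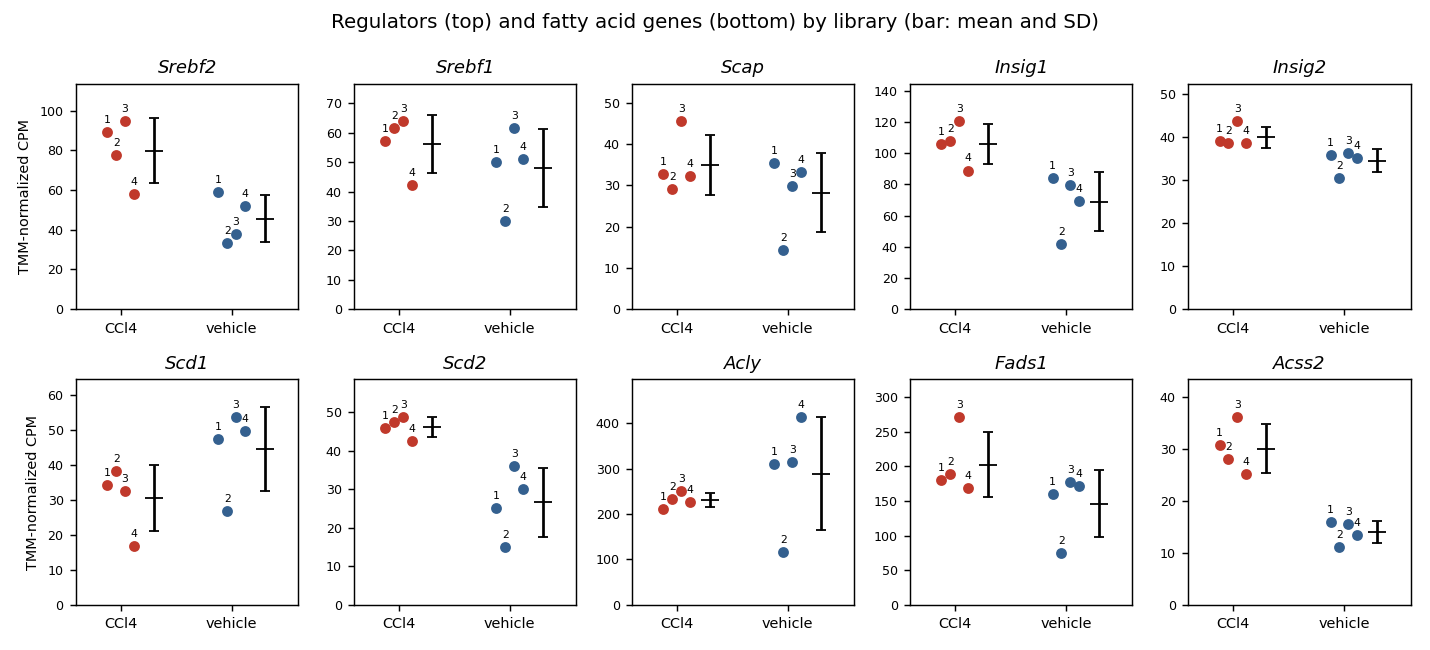
TMM-normalized CPM of the 5 regulators (top) and of Scd1, Scd2, Acly, Fads1 and Acss2 (bottom), 1 panel per gene, with the 4 CCl4 libraries on the left and the 4 vehicle libraries on the right; points are libraries with their replicate number, and bars the mean and SD. The groups are apart for Insig1, Insig2, Scd2 and Acss2 and overlap in the other panels, and vehicle 2 is the lowest vehicle point in every panel (116 CPM for Acly).

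The libraries were not equally close within their groups. Vehicle 2 was the lowest vehicle library for 23 of 34 members, CCl4 3 the highest CCl4 library for 23, and CCl4 4 the lowest for 19. Vehicle 2 and CCl4 4 also had the fewest estimated counts and the most counts on chemosensory receptor genes, at 3132 and 3072 CPM against 611 to 1553 CPM in the other libraries. Mitochondrial transcripts took 0.76 to 1.16% of counts in CCl4 and 1.91 to 5.31% in vehicle libraries. Without vehicle 2 and CCl4 4 together, 16 of 34 members were called higher and 2 lower. Of all 14982 genes tested in that fit, 1653 were called higher and 1163 lower, against 1358 and 953 of 15212 with all libraries. The 2 members called lower were Scd1 (log2 fold change -0.53, edgeR adjusted p = 0.013) and Acly (-0.58, edgeR adjusted p = 0.0227). All 9 sterol enzymes called with 8 libraries were also called then.

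The authors' deposited FPKM table held all 34 members and covers the same libraries, so it is not an independent measurement. Its FPKM to TPM ratio was 0.11 in the median member but 0.0292 for Srebf2 and 0.0111 for Elovl6. Srebf2 had 1.36, 0.68, 1.21 and 0.75 FPKM in the CCl4 libraries. All Srebf2 transcripts together had 33.7, 32.7, 31.9 and 25.8 TPM there, and transcript Srebf2-201 alone had 12.5, 5.56, 10.0 and 8.33 TPM. In the CCl4 libraries the FPKM values followed Srebf2-201 in rank. In the vehicle libraries vehicle 1 and vehicle 2 changed order, at 0.52 and 0.46 FPKM against 4.18 and 4.21 TPM of Srebf2-201. Why the ratios differ was not tested. Of the 13 members called, 12 passed a filter on FPKM, and 8 of those were also called by limma on log2(FPKM + 1). They were 7 sterol enzymes and Srebf2, whose FPKM values stand on that lower ratio, and the calls of Fdft1, Dhcr7, Acss2 and Scd2 were lost. Msmo1 averaged 6.52 ± 1.27 FPKM in CCl4 and 2.57 ± 0.29 FPKM in vehicle libraries (SD, n = 4 each). Fold changes on that scale understate those of low genes because of the pseudocount of 1.

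Beyond the members, 44 other genes of sterol and lipid metabolism were examined, of which 43 were tested. This list too was chosen with earlier results of these data known. Of these, 12 were called higher and 3 lower (median log2 fold change 0.21), against the same 8.93% and 6.26% of all genes. Acss1, the mitochondrial counterpart of Acss2, had the largest change among those called, at 63.3 ± 7.4 CPM in CCl4 and 23.6 ± 7.1 CPM in vehicle libraries (SD, n = 4 each; log2 fold change 1.42, edgeR adjusted p = 0.00104). Dgat1 and Dgat2, which make triglyceride, rose by log2 fold changes of 0.96 and 0.98. Acsl3, which activates fatty acids at lipid droplets, rose by 0.96, and Pcyt2, of phosphatidylethanolamine synthesis, by 0.76 (log2 fold changes). Npc1 and Npc2, which move cholesterol out of lysosomes, rose by log2 fold changes of 0.88 and 0.77. The genes called lower were regulators. Nr1h3, which encodes liver X receptor alpha, averaged 142 ± 31 CPM in CCl4 and 277 ± 44 CPM in vehicle libraries (SD, n = 4 each; log2 fold change -0.97, edgeR adjusted p = 0.00499). Mylip, which promotes degradation of lipoprotein receptors, had a log2 fold change of -0.65 (edgeR adjusted p = 0.0182). Mlxipl, which encodes the carbohydrate-responsive factor ChREBP, had a log2 fold change of -1.30 at low levels, and its groups overlapped (edgeR adjusted p = 0.0484). Without CCl4 1 or vehicle 3, 7 of these genes were called higher.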

How the data were processed

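RNA of sorted macrophages was amplified from 10 ng per sample and sequenced from polyA-selected libraries, per the labels' protocols. The authors deposited, for each library, kallisto estimated counts and TPM per transcript, per the file headers, and 1 gene table of FPKM. The submitters' processing notes name kallisto, edgeR, limma and the build mm10; the sources used here give no version or transcript release and do not say how FPKM was made. Whether counting used strand is not stated.

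Of 117494 transcripts, 116405 matched the GENCODE annotation by identifier. Estimated counts were summed to 35906 genes and rounded. Genes were kept by edgeR's filterByExpr (minimum count 10, total 15), scaled by TMM and tested with edgeR 4.0.16 (quasi-likelihood, R 4.3.3), 4 CCl4 against 4 vehicle libraries, two-sided, with Benjamini-Hochberg adjustment over 15212 genes at 0.05. The SE is the log2 fold change divided by the square root of F. Shares used exact permutation over libraries. The test was checked on simulated counts. Totals were 19489104 to 26196063 estimated counts, and no pair of libraries of the same group agreed within sampling noise.

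All members are named; those called, the regulators, and Acly and Scd1 (added after their values were seen) are given per library. Other pathway genes were to be named when called, at most 8 each way by fold change; 1 such gene is not reported here. Members and lists were chosen with earlier results of these data known. Promoter windows came from a RefSeq table (GRCm38.p6), which matched 27 of 34 members. Alternatives were other scalings, no filter, DESeq2 1.42.0, length-scaled TPM, limma 3.58.1 on FPKM, a replicate block and leaving libraries out.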

Additional observations from a re-analysis of the deposited data

Results flagged for a closer look

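A single library stood far from the other 3 of its group for 5 of 74 groups of values examined, as judged by Dixon's test on its gap to the nearest library. Chance marks about 1 in 20 groups in this way. Sqle had 8.56 CPM in CCl4 2, against 14.98 to 16.3 CPM in the other CCl4 libraries. Insig2 had 43.7 CPM in CCl4 3, against 38.6 to 39.1 CPM in the other CCl4 libraries. The Scd2 share of Scd1 and Scd2 was 69.0% in CCl4 4, against 52.1 to 53.0% in the other CCl4 libraries. Acat2 had 23.7 CPM in vehicle 2, against 21.8 to 22.1 CPM in the other vehicle libraries. Fads1 had 74.7 CPM in vehicle 2, against 160.5 to 177.2 CPM in the other vehicle libraries.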

How the results depend on the processing

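Across the alternatives no member called higher was called lower, and Acly and Scd1 were the members called lower in any. Sterol enzymes called higher numbered 3 with limma on log2(FPKM + 1) without a filter and 7 to 9 when 1 library was left out. Regulators called higher numbered 2 without a filter, with DESeq2 or without vehicle 2 and CCl4 4 together, and 0 with length-scaled TPM or FPKM without a filter. Leaving out 1 library gave 0 to 2 regulators higher. DESeq2 called 1 transport and storage gene higher. No fatty acid gene was called higher in the 3 FPKM fits (0 at pseudocounts of 1 and 0.1, and without a filter). Fatty acid genes called lower numbered 2 without vehicle 2 and CCl4 4, and 0 to 1 when 1 library was left out. Other pathway genes called higher numbered 6, 5 and 2 in those FPKM fits and 7 to 13 with 1 library left out; those lower numbered 0 with FPKM without a filter and 1 to 3 with 1 library left out. Among all genes, the FPKM fits called 556, 536 and 335 higher and 623, 602 and 315 lower. Those fits test fewer or other genes, and the cause of the lost calls was not tested. With library size alone 1431 genes were lower, and leaving out 1 library gave 578 (without CCl4 1) to 1163 (without vehicle 2). DESeq2 called 17 members higher, and 1787 of all 15212 genes.

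Scaling moved the balance of calls. Of all calls, 58.8% were higher with TMM, 43.1% with library size alone and 47.5% with upper-quartile scaling, and the median log2 fold change of all genes was -0.03, -0.16 and -0.12 in that order. The sterol enzymes' median was 0.54 and 0.59 under those scalings, and the fatty acid genes' median was 0.14 and 0.18. The fatty acid median was -0.0751 with length-scaled TPM and 0.00675 with FPKM without a filter.

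The sign turned for 6 members and the Srebf1 share. Pmvk was 0.0123 on DESeq2 size factors, 0.0299 without a filter, 0.0127 with DESeq2, 0.208 without vehicle 2 and CCl4 4, and -0.0655 to 0.136 with 1 library left out. Nsdhl was -0.0115 with library size alone. Acaca was -0.0485 with library size, -0.0118 with upper-quartile scaling, -0.118 with length-scaled TPM and -0.114 with FPKM without a filter. Elovl6 was -0.0751 with length-scaled TPM. In the FPKM fits Stard4 was -0.1, -0.231 and -0.1, and Soat1 was -0.201, -0.208 and -0.201. These are log2 fold changes, none called. The difference in the Srebf1 1a share was -6.27 to 0.988 percentage points with 1 library left out and 3.68 without vehicle 2 and CCl4 4. The Scd2 share difference was 18.4 to 24.0 percentage points with 1 library left out (exact permutation p = 0.0571 each, the smallest that design allows) and 18.0 without both (exact permutation p = 0.1, likewise the smallest).

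Same-numbered libraries had correlations of deviations of 0.015, -0.241, 0.039 and -0.169. Differently numbered libraries had -0.46 to 0.472, so these values cannot decide whether the numbers pair libraries. With the replicate block 12 members were higher, without Fdft1, and 1281 genes were higher and 829 lower. Hsd17b7, Elovl6, Fads2 and Tm7sf2 rest on few counts, each under 10 CPM in every library.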
